A study of Arabidopsis thaliana with 2 samples.

Results

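The 10 genes described here are the cold-regulated genes *COR15A*, *COR15B*, *KIN1*, *KIN2*, *RD29A*, *RD29B*, *COR413IM1*, *COR413IM2*, *COR413PM1* and *COR413PM2* of *Arabidopsis*, taken by locus from a table of 33602 genes. All 10 had reads, as had 22319 genes in all. RNA was sequenced from the aerial parts of Col-0, the wild-type, and of *35S:SsCBF1-11*, 1 homozygous transgenic line in the Col-0 background. The line expresses *SsCBF1*, a CBF gene of the nightshade *Solanum lycopersicoides*, behind the CaMV35S promoter, which is active in most tissues. Both genotypes were 4 weeks old, unstressed and grown side by side at 22°C in days of 16 h light with nights of 8 h, and tissue of 20 plants per genotype was pooled into 1 library. No difference between the genotypes therefore has a replicate check, and the tests below compare the reads of 2 libraries, not the genotypes.

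CBF proteins, also called DREB1, are transcription factors that bind the C-repeat/dehydration-responsive element (CRT/DRE), whose core is CCGAC. In *Arabidopsis* their own genes are switched on within minutes to hours of cold, and the genes they then activate, the CBF regulon, prepare the plant for frost. The *COR15* and *KIN* genes and *RD29A* are classic members of this regulon. They and *RD29B* encode small or very hydrophilic proteins. The COR413 proteins cross membranes, those named IM in the chloroplast and those named PM at the plasma membrane. Several of these genes are also induced by drought and by abscisic acid (ABA), which acts through another element, the ABRE, with the core ACGTG.

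In the *35S:SsCBF1-11* library *COR15A*, *COR413IM1*, *COR15B*, *KIN2* and *RD29A* were higher than in Col-0, by 34.3-, 8.99-, 8.03-, 2.92- and 2.44-fold. *COR413IM2* and *COR413PM1* had ratios of 1.65 and 1.37, under the 2-fold threshold. *COR413PM2* stood close to 1. *KIN1* had a ratio of 0.977 from 14 and 10 reads, too few to exclude a 2-fold difference in either direction. *RD29B* was too rare in both libraries to be judged. In 4 of the families the copies sit next to each other in the genome, and in 3 of these (*COR15*, *KIN* and *COR413IM*) the ratios of the copies differed beyond counting error. For *COR15* and *KIN* this rests on few reads of *COR15B* and *KIN1*, whose assignment is uncertain for reasons given below.

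The library of Col-0 held 9120358 reads assigned to genes and that of *35S:SsCBF1-11* 6669454, so that equal read numbers stand for a 1.37-fold higher level in the latter. Ratios given here are of reads over these totals. Their 95% intervals are exact (Clopper-Pearson) and cover counting error only, as does the limit of 3 reads that a count of 0 allows. The leaf markers *RBCS1A*, *RCA*, *LHCB1.1* and *LHCA1* together had 261545 reads in Col-0 against 222585 in *35S:SsCBF1-11*, which over the library totals is 1.16-fold higher in the latter. None of them was called, and their ratios ran from 1.09 for *RCA* to 1.56 for *LHCB1.1*, above the 1.37 of *COR413PM1* given below. The part of this difference in the ratios of the cold genes was not tested. Of 4 root markers, 3 had 0 reads in both libraries and *COBL9* had 2 reads in Col-0 against 0 in *35S:SsCBF1-11*. Markers of the anther and pollen coat were seen in Col-0 alone: the 6 genes on that list (*GRP17*, *GRP19*, *ATA27*, *A9*, *MS2* and *ATA7*) summed to 331 reads in Col-0, 36.3 reads per 1000000 gene reads (RPM), and each had 0 in *35S:SsCBF1-11*. Of these 6 genes 4 (*GRP17*, *GRP19*, *ATA27* and *ATA7*) were called lower by the rule given below, as were 0.838% of all genes tested. Fewer cells of a type and less RNA per cell cannot be told apart in such pools, and the part of the floral difference, too, was not tested.

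Levels between genes were compared as RPKM, the RPM per kilobase of gene length. In Col-0, *KIN2* was the most abundant of the 10 with an RPKM of 76.8. *COR413PM1* and *COR413PM2* followed with 58.0 and 34.7, then *COR413IM2* with 21.0 and *COR15A* with 16.1. *RD29A* had 7.06, *COR413IM1* 4.23, *KIN1* 2.80, *COR15B* 1.34 and *RD29B* 0.103. The counting intervals of neighbours overlapped for *COR413IM2* and *COR15A*, for *COR413IM1* and *KIN1*, and for *KIN1* and *COR15B*. In the unstressed wild-type pool, then, the genes of the plasma membrane proteins and *KIN2* were well expressed, and *COR15B* and *RD29B* were rare.

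In the *35S:SsCBF1-11* library the order was different. *COR15A* came first with an RPKM of 552, ahead of *KIN2* with 224 and *COR413PM1* with 79.3. *COR413PM2*, *COR413IM1* and *COR413IM2* followed with 39.3, 38.0 and 34.8, which their counting intervals do not separate. *RD29A* had 17.2, *COR15B* 10.8, *KIN1* 2.73 and *RD29B* 0.422. Among all 22319 genes with reads, *COR15A* moved from rank 5080 by RPKM in Col-0 to rank 143, *KIN2* from 1226 to 367 and *COR413IM1* from 11539 to 2395. The summed RPKM of the 10 genes was 222 in Col-0 against 999 in *35S:SsCBF1-11*, and the share of *COR15A* in it was 7.26% and 55.3%. Without *COR15A* the sums were 206 and 447. In reads, the 10 genes had 1621 in Col-0 against 5011 in *35S:SsCBF1-11*, and the 9 genes other than *COR15A* had 1510 and 2229, a ratio of 2.02 (1.89 to 2.16).

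**Figure D1:**
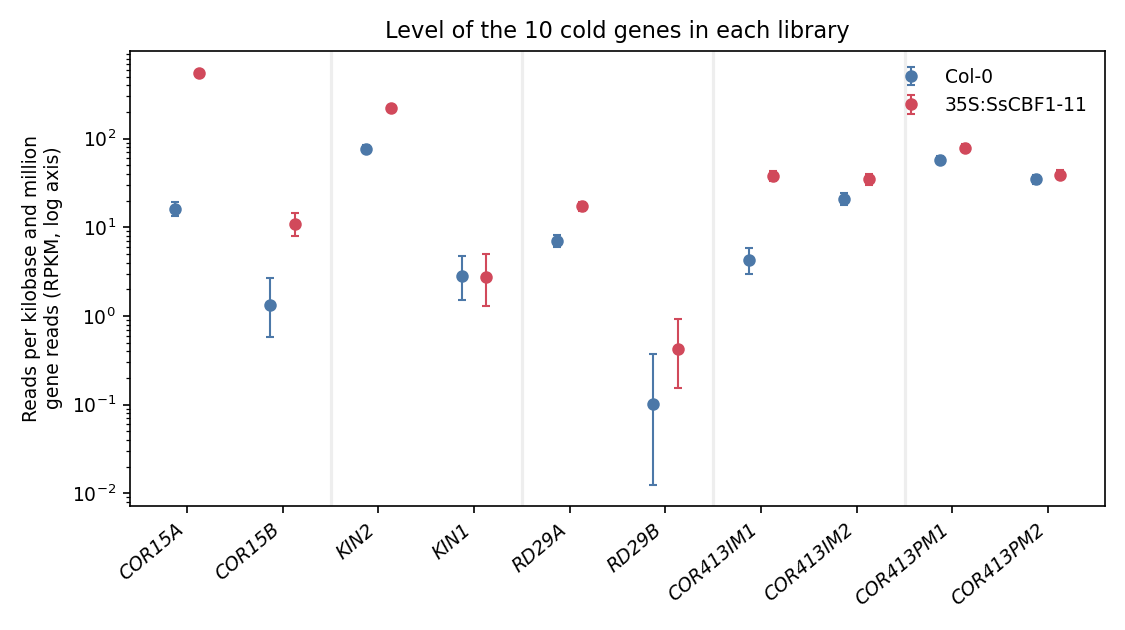
RPKM (log axis) of the 10 cold genes in the Col-0 library (blue) and the *35S:SsCBF1-11* library (red), grouped by family, with bars for the exact 95% Poisson counting interval of each library. *COR15A* stands at 16.1 in Col-0 against 552 in *35S:SsCBF1-11*, while *KIN1* stands at 2.80 and 2.73.

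Of the 10 genes, 5 were called higher in *35S:SsCBF1-11* and 0 lower, at an adjusted p under 0.001 (two-sided exact binomial test with Benjamini-Hochberg adjustment over 22319 genes) and a fold above 2. Over all genes tested, 0.533% were called higher and 0.838% lower. The called genes are also ones that the study picked out on these same libraries, so that their number is not independent evidence of a direction. Without the fold threshold and at an adjusted p under 0.05, *COR413IM2* and *COR413PM1* joined them, which made 7 of 10 where 4.5% of all genes were higher by that rule. The spread between pools is not known. If the pools were taken to vary with a coefficient of variation of 0.2, edgeR's exact test called only *COR15A* and *COR413IM1* of the 10, and 0.0806% of all genes higher. Over the 9 genes with at least 10 reads the median log2 ratio was 1.28, and over all 18443 such genes it was -0.07.

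**Figure D2:**
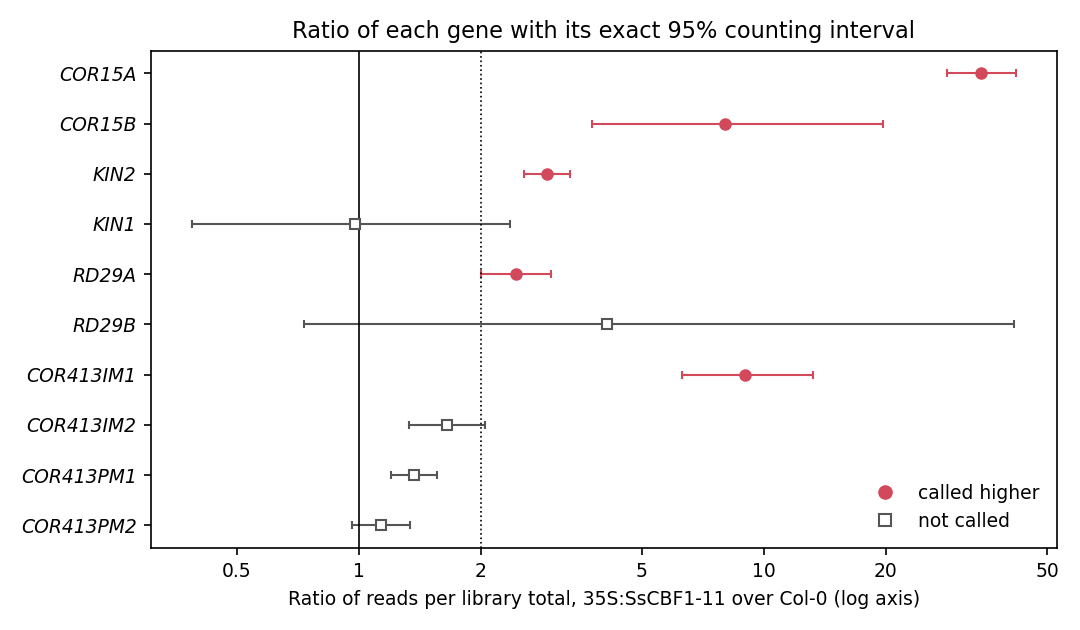
Ratio of reads per library total, *35S:SsCBF1-11* over Col-0 (log axis), for each gene with its exact 95% counting interval. The solid line marks equal levels and the dotted line a ratio of 2. The 5 genes called higher (filled) lie between 2.44 and 34.3, and the intervals of *KIN1*, *RD29B* and *COR413PM2* include 1.

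*COR15A* (AT2G42540; chromosome 2, 17710441 to 17712330, minus strand) encodes a chloroplast protein that protects membranes and stromal proteins during freezing. It had 111 reads in Col-0 against 2782 in *35S:SsCBF1-11*, a ratio of 34.3 (28.3 to 41.8). Among 14353 genes with at least 50 reads over both libraries only *MSH5* and *NATA1* had larger ratios. *COR15B* (AT2G42530; chromosome 2, 17708593 to 17710433, minus strand), which encodes a related chloroplast protein, had 8 and 47 reads (8.03-fold, 3.76 to 19.7, adjusted p = 2.5e-09 by the exact binomial test), rank 13 among the same genes. Both copies were thus higher, but *COR15A* more so, by a ratio of ratios of 4.27 (exact conditional interval 1.7 to 9.39). Such a ratio within a pair does not depend on how the libraries are scaled. *COR15A* held 93.3% of the reads of the pair in Col-0 against 98.3% in *35S:SsCBF1-11*.

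The coding sequences of this pair are identical at 83.8% of the aligned bases, and their longest identical stretch within the transcripts is 31 bases, so that no stretch of 50 bases is shared. In the reference annotation 7 bases lie between the end of *COR15A* and the start of *COR15B*, so that the region before *COR15B* is the *COR15A* gene itself. The reference transcript of *COR15B* also overlaps exons of AT2G42520 on the opposite strand over 468 bases. That gene had 206 and 158 reads, a ratio of 1.05 (0.847 to 1.30). The counts were made on a *COR15B* model with a listed length of 653 bases, against 1584 for the reference transcript. Whether that model reaches the overlap is not known. The strand setting of the counts is not given in the sources used here, so that reads of the 2 genes within any overlap could not be told apart.

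CRT cores before both start codons are shown here with 10 bases on each side, read 5′ to 3′ on the strand of the core, which is in capitals (reference sequence of TAIR10.1). In *COR15A* 3 cores lie 501, 438 and 261 bases before the start codon, the last of them within the annotated gene. In *COR15B* a core lies 260 bases before the start codon, also within the annotated gene. It is at nearly the same distance as the last core of *COR15A*, and 20 of the 25 bases shown are the same. A second core, 820 bases before the start codon of *COR15B*, lies inside *COR15A*.
*COR15A*, 501 bases before, chr2:17712458-17712482, plus strand: acaaaataaaCCGACaaggttgcaa
*COR15A*, 438 bases before, chr2:17712395-17712419, minus strand: aacttgttggCCGACatacatttgt
*COR15A*, 261 bases before, chr2:17712218-17712242, minus strand: aatttcatggCCGACctgctttttt
*COR15B*, 260 bases before, chr2:17710124-17710148, minus strand: aacttgatggCCGACctcttttttc

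*KIN2* (AT5G15970; chromosome 5, 5211719 to 5212743, plus strand), also known as *COR6.6*, and *KIN1* (AT5G15960; chromosome 5, 5209717 to 5210826, plus strand) encode small hydrophilic proteins of 66 residues each that accumulate in cold and drought. *KIN2* had 336 reads in Col-0 against 717 in *35S:SsCBF1-11* (2.92-fold, 2.56 to 3.33, adjusted p = 1.46e-61 by the exact binomial test). *KIN1* had 14 and 10, a ratio of 0.977 (0.388 to 2.36). The copy that was already abundant in Col-0 was thus higher in *35S:SsCBF1-11*. The rare copy did not pass the test, with too few reads to exclude a 2-fold difference. The ratio of *KIN2* exceeded that of *KIN1* by 2.99 (1.22 to 7.59), and the ratio of their RPKM values was 27.5 in Col-0 against 82.0 in *35S:SsCBF1-11*.

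These 2 genes are the most alike of the pairs, with 191 of 201 coding bases identical, yet no stretch of 100 bases and only 10 stretches of 50 bases occur in both transcripts. Their longest identical stretch is 58 bases. How reads that match both were counted is not given in the sources used here, so that the 24 reads of *KIN1* are uncertain. With the reads of both copies summed, the ratio was 2.84 (2.5 to 3.24). The cores nearest to the 2 start codons lie 173 bases before that of *KIN1* and 180 before that of *KIN2*. Both lie within the annotated gene. They are identical at 24 of the 25 bases shown, and their part in the ratios was not tested. *KIN1* has a further core 772 bases before its start codon, preceded by T, and *KIN2* has only the core shown.
*KIN1*, 173 bases before, chr5:5209804-5209828, plus strand: taaatagctaCCGACataaggcaaa
*KIN2*, 180 bases before, chr5:5211771-5211795, plus strand: taaaaagctaCCGACataaggcaaa

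*RD29A* (AT5G52310, also *LTI78*; chromosome 5, 21240717 to 21243644, plus strand) encodes a large hydrophilic protein of 710 residues, and its promoter is the one in which the DRE was defined. It had 161 reads in Col-0 against 287 in *35S:SsCBF1-11* (2.44-fold, 2.0 to 2.98, adjusted p = 1.72e-18 by the exact binomial test). *RD29B* (AT5G52300, also *LTI65*; chromosome 5, 21237021 to 21239531, plus strand), which is known for its response to ABA and ends 1185 bases before *RD29A*, had 2 and 6 reads. Its ratio of 4.10 (0.734 to 41.6, adjusted p = 0.313 by the exact binomial test) spans 1, so that a difference was not detectable at this depth. The ratio of ratios within the pair, 0.594 with an interval of 0.0581 to 3.38, does not separate them either. *RD29A* was 68.7 times as abundant as *RD29B* by RPKM in Col-0 and 40.8 times in *35S:SsCBF1-11*.

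*RD29A* has 4 CRT cores within 347 bases of its start codon, the largest number among the 10 genes. All are on the strand of the gene, 3 preceded by A and the one nearest to the start codon by G. That nearest core lies within the annotated gene. *RD29B* has 3 cores, of which 2 lie inside the neighbouring gene AT5G52290. The remaining one, 315 bases before the start codon, matches the farthest core of *RD29A* at 19 of the 25 bases shown.
*RD29A*, 347 bases before, chr5:21240567-21240591, plus strand: tagacatggaCCGACtactaataat
*RD29A*, 297 bases before, chr5:21240617-21240641, plus strand: aaatatcataCCGACatcagtttga
*RD29A*, 240 bases before, chr5:21240674-21240698, plus strand: agatatactaCCGACatgagttcca
*RD29A*, 203 bases before, chr5:21240711-21240735, plus strand: aaagatcaagCCGACacagacacgc
*RD29B*, 315 bases before, chr5:21236875-21236899, plus strand: taaacgtggaCCGACtaaaactaaa

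*COR413IM1* (AT1G29395; chromosome 1, 10288129 to 10289666, minus strand) encodes a membrane protein of the inner chloroplast envelope. It had 35 reads in Col-0 against 230 in *35S:SsCBF1-11* (8.99-fold, 6.28 to 13.2, adjusted p = 8.67e-49 by the exact binomial test), rank 12 of the 14353 genes. *COR413IM2* (AT1G29390; chromosome 1, 10286067 to 10288103, minus strand), described in the deposited table as a thylakoid membrane protein, had 158 and 191 reads. Its ratio of 1.65 (1.33 to 2.05) stayed under the fold threshold, with an adjusted p of 6.87e-05 by the same test. The ratio of *COR413IM1* exceeded that of *COR413IM2* by 5.44 (3.54 to 8.46), the largest estimate within a pair among those whose interval excludes 1. In Col-0 *COR413IM2* had 4.98 times the RPKM of *COR413IM1*, and in *35S:SsCBF1-11* 0.916 times. The rarer copy was thus the one that was called here. In the *KIN* pair the more abundant copy was called, but the 24 reads of *KIN1* were too few to exclude a 2-fold difference.

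The coding sequences of these copies are identical at 87.2% of the aligned bases and their transcripts share 10 stretches of 50 bases and none of 100. In the annotation 25 bases lie between the end of *COR413IM1* and the start of *COR413IM2*. The reference transcript of *COR413IM2* overlaps exons of AT1G29380 on the opposite strand over 98 bases, a gene with 13 and 6 reads in the 2 libraries. *COR413IM1* has 1 CRT core in the 1000 bases before its start codon, and *COR413IM2* has none.
*COR413IM1*, 381 bases before, chr1:10289911-10289935, plus strand: ttcattggtaCCGACataactaatt

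*COR413PM1* (AT2G15970; chromosome 2, 6949851 to 6951192, plus strand) and *COR413PM2* (AT3G50830; chromosome 3, 18893739 to 18895587, minus strand) encode proteins of the plasma membrane and are the only pair on different chromosomes. *COR413PM1* had 474 reads in each library, which is a ratio of 1.37 (1.20 to 1.56, adjusted p = 3.84e-05 by the exact binomial test) at their unequal totals. *COR413PM2* had 322 and 267, a ratio of 1.13 (0.960 to 1.34, adjusted p = 0.440 by the same test). The ratio of ratios, 1.21 (0.976 to 1.49), does not separate the pair. With 948 and 589 reads over both libraries these genes were among the best measured of the 10, and their upper interval bounds of 1.56 and 1.34 lie below 2. *COR413PM1* has 2 CRT cores, 871 and 480 bases before its start codon, and *COR413PM2* has none. A relative outside the 10, AT2G23680, had 60 and 49 reads, and AT4G37220 had 3 and 0.
*COR413PM1*, 480 bases before, chr2:6949668-6949692, plus strand: ttaatgtataCCGACataccctatg

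**Figure D3:**
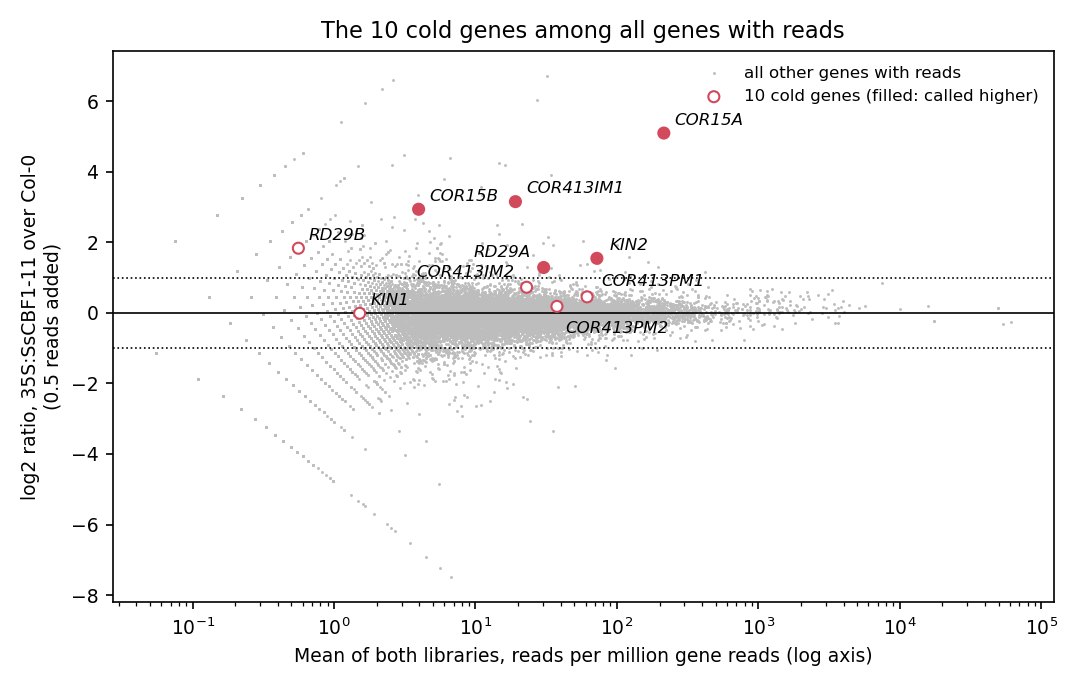
log2 ratio, *35S:SsCBF1-11* over Col-0 (0.5 reads added to each count), against the mean RPM of both libraries (log axis) for all 22319 genes with reads (grey), with the 10 cold genes in red (filled: called higher). Dotted lines mark 2-fold differences. *COR15A* lies far above genes of its abundance at a log2 ratio of 5.09, and *COR413PM1* and *COR413PM2* lie at 0.45 and 0.18.

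In the 1000 bases before the start codon, CCGAC occurred on either strand in 8 of the 10 genes and in 39.4% of 27443 protein-coding genes of the 5 chromosomes. ACCGAC, which contains it, occurred in 8 of 10 and in 15.6% of all, and GCCGAC in 4 of 10 and in 9.23%. At least 3 copies of CCGAC were held by *COR15A*, *RD29A* and *RD29B*, and by 3.18% of all genes. In this window the 5 called genes all had a core, but so had *COR413PM1*, which was not called at a ratio of 1.37. *KIN1* and *RD29B* also had a core, but their 24 and 8 reads were too few for the lack of a call to be read as no difference. *COR15A*, with the highest ratio (34.3), had 3 copies. *COR413IM1* with 1 copy and *RD29A* with 4 had ratios of 8.99 and 2.44. *COR413IM2* and *COR413PM2*, with 0 copies, had ratios of 1.65 and 1.13. A relation between the number of copies and the ratio was not tested. In the window before the start codon the ABRE core ACGTG occurred in all 10 genes and in 54.2% of all, with 7 copies in *KIN2*, 6 in *RD29B* and 1 in each of *RD29A* and *COR413PM2*. CACGTG, which reads the same on both strands and so counts as 2 copies of ACGTG, occurred in 6 of 10 genes and in 15.1% of all. These counts depend on the window, which was placed at the start codon after counts before the annotated gene start had been seen. In the 1000 bases before the gene start, CCGAC occurred in 7 of 10 genes (37.4% of all), *KIN2* being the gene that dropped out, ACCGAC in 6 (15.2%) and GCCGAC in 2 (8.72%). There ACGTG occurred in 6 of 10 genes, near its share of 54.4% in all, and CACGTG in 2 of 10 (14.8%). All of them describe the reference letters only and not the binding of any protein.

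**Figure D4:**
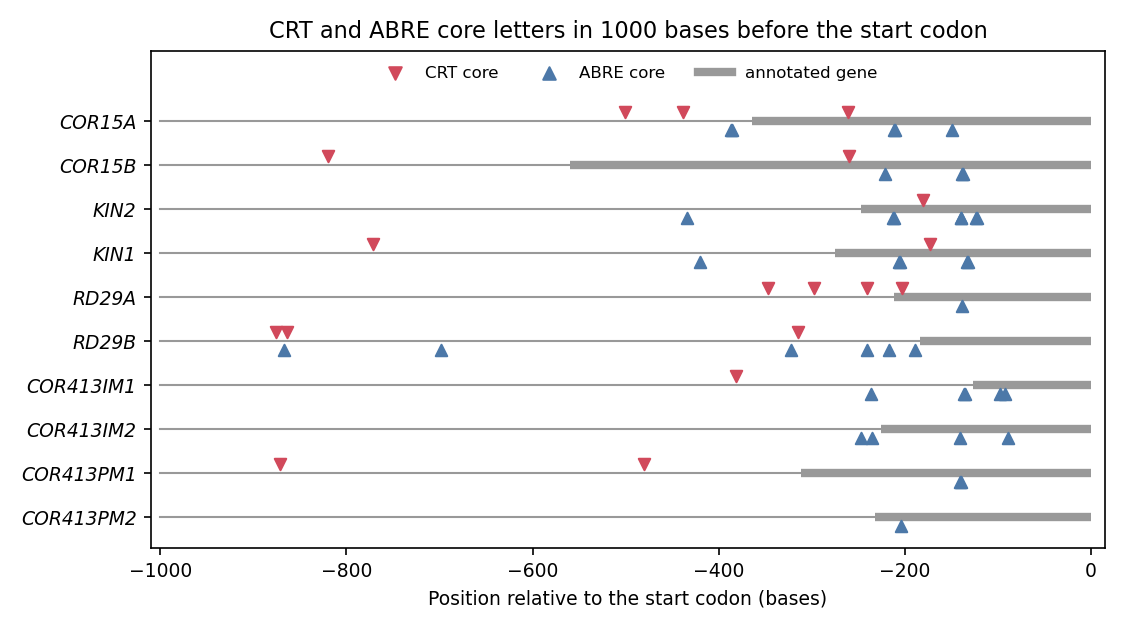
Position of CRT cores (red) and ABRE cores (blue) on either strand, in bases before the start codon, for each of the 10 genes. The thick line is the annotated gene, introns included. *RD29A* has 4 CRT cores within 347 bases, and *COR413IM2* and *COR413PM2* have none.

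The *Arabidopsis* CBF genes themselves were at or near 0. *CBF1*, *CBF3*, *CBF4* and *DDF2* had 0 reads in both libraries, *CBF2* had 1 read in Col-0 and *DDF1* had 1 in *35S:SsCBF1-11*. A count of 0 allows up to 3 reads, that is an RPM of 0.329 in Col-0 against 0.450 in *35S:SsCBF1-11*. The reads of *SsCBF1* were not analysed here, so that the overexpression was not checked in these libraries. The cold genes above were thus measured in libraries with almost no transcripts of the plant's own CBF genes.

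Of 17 other CBF regulon and cold-induced genes, 16 had reads, 3 were called higher, 0 lower and 13 were not called. The 3 were *GOLS3* and *GOLS1*, galactinol synthases for raffinose sugars, with 5 and 84, and 379 and 1048 reads, and AT1G16850 with 15 and 63. The study had also picked out these 3 genes on the same libraries, so that their number is not independent evidence of a direction. Over all genes tested, 0.533% were called higher and 0.838% lower. The genes of the list with the most reads were not called and had ratios of 0.864 for *BAM3*, a beta-amylase of starch breakdown, 1.18 for *ERD14*, a dehydrin, and 1.32 for *ERD4* (AT1G30360). The dehydrin gene *COR47*, named after its values were seen because its RPKM exceeded that of *ERD4* in both libraries (71.3 and 127), had a ratio of 1.78 (1.62 to 1.95), under the fold threshold. With a coefficient of variation of 0.2 taken for the pools 1 gene of the list stayed called. The median log2 ratio of the 15 genes with at least 10 reads was 0.45. Of 12 ABA-responsive genes, only the NAC factor gene *RD26* was called, with 49 and 93 reads (2.60-fold higher), and the median of the 11 with at least 10 reads was 0.22. *RD26*, too, had been picked out by the study on these libraries, and its call was lost at an assumed coefficient of variation of 0.1 and above. *RD22*, *RD20* and *ATHB12*, those with the most reads, had ratios of 0.995, 1.49 and 1.06.

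Many cold genes are gated by the circadian clock, so the clock genes were read in the same libraries. None of 10 was called. *LHY* had 6115 and 4339 reads, a ratio of 0.970, and *CCA1* 1304 and 977, a ratio of 1.02. *GI*, an evening gene, had 120 and 58, a ratio of 0.661 with an adjusted p of 0.0742 by the exact binomial test. The median log2 ratio of the 9 with at least 10 reads was -0.38, below that of all genes.

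**Figure D5:**
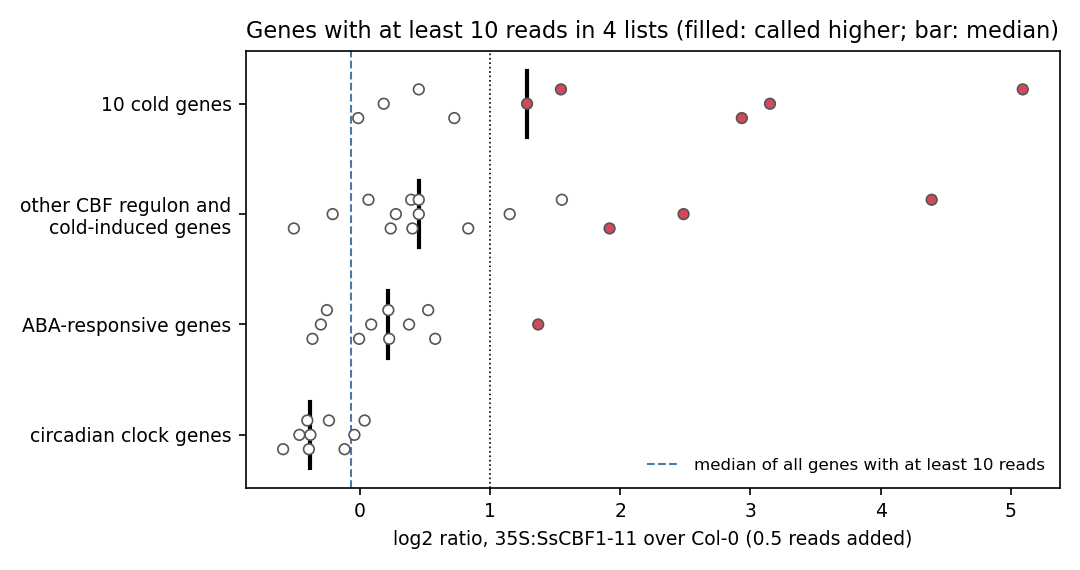
log2 ratio, *35S:SsCBF1-11* over Col-0 (0.5 reads added), of each gene with at least 10 reads in 4 lists, with filled points for genes called higher, a bar at the median of each list, a dashed line at the median of all genes (-0.07) and a dotted line at a 2-fold higher level. The medians are 1.28 for the 10 cold genes, 0.45 for the other CBF regulon and cold-induced genes, 0.22 for the ABA-responsive genes and -0.38 for the clock genes.

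Outside the 10, the genes with at least 50 reads whose log2 ratio came nearest to that of *COR15A* were *GOLS3*, *CYP81F4* and *PDF1.2c*, at distances of 0.58, 0.80 and 0.87. Those nearest to *RD29A* were AT5G30269, *NEET* and AT1G13650, all within 0.0049. Likeness over 2 libraries rests on a single ratio per gene.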

How the data were processed

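The authors sequenced poly(A)-purified RNA of both pools on the Illumina HiSeq system and deposited, per gene model, the count of reads, the listed length and the RPKM. The submitters' processing notes name TAIR10 and CASAVA 1.7, while for the aligner, for how reads were counted and for strand handling a setting is not given in the sources used here. Deposited RPKM values equalled reads over length and library total in 100% of genes (relative tolerance 1e-06). The deposited folds, q-values and lists of pathway and Gene Ontology names of the authors' comparison were not used.

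With 1 library per genotype no spread can be estimated. For every gene with a read (22319), the split of its count between the libraries was set against their split of all gene reads (42.2% in *35S:SsCBF1-11*) by an exact binomial test, two-sided, with Benjamini-Hochberg adjustment. Calls needed an adjusted p under 0.001, as in the study's methods, and a fold above 2 with 0.5 reads added. The adjusted p of *COR15A* was below the smallest number the software holds and is not printed. The procedure was tested on simulated counts with counting error only, which cannot show how it behaves under a spread between pools.

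Coordinates, sequences and gene structures come from RefSeq TAIR10.1, to which 32835 of 33602 loci matched. No listed length of the 10 genes equals a reference transcript, so the authors' gene models differ from these. The window before the start codon was added after the counts before the gene start had been seen. The 10 genes, the other 8 lists and the tests were chosen with earlier results of these data known. All 10 genes are named, and of each other list every called gene and the 3 with the most reads. Neighbouring genes were named because they overlap or adjoin one of the 10.

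As alternatives, the libraries were scaled in 4 other ways (TMM in edgeR, size factors in DESeq2, the upper quartile, totals without the 10 most abundant genes), and the counts were also tested with a minimum of 10 reads, other pseudocounts and thresholds, summed pairs, another gene length, and the exact test of edgeR at a coefficient of variation set to 0.1, 0.2 or 0.4. Python 3.11.15, scipy 1.17.1, pandas 2.3.3, Biopython 1.88, R 4.3.3, edgeR 4.0.16 and DESeq2 1.42.0 were used.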

Additional observations from a re-analysis of the deposited data

How the results depend on the processing

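The 5 calls among the 10 genes were the same genes under the 4 other scalings, the minimum of 10 reads (which leaves out *RD29B*), both other pseudocounts and an assumed coefficient of variation of 0.1. With a fold above 3 the calls were 3 (*COR15A*, *COR15B*, *COR413IM1*), and with a coefficient of 0.2 or 0.4 they were 2 and 0. Over all genes, 119 were called higher and 187 lower. These became 57 and 90 with a fold above 3, 1005 and 1603 at an adjusted p under 0.05 with no fold threshold, and 64 and 82, 18 and 21, and 2 and 0 with a coefficient of 0.1, 0.2 and 0.4. Of the other CBF regulon and cold-induced genes, 7 were higher and 1 lower with no fold threshold, and 1 and 0 were higher with a coefficient of 0.2 and 0.4. Of the ABA-responsive genes 2 were higher with no fold threshold, and 0 with a fold above 3 or with any of the 3 coefficients. *KIN1*, whose log2 ratio was -0.01 with 0.5 reads added, became 0.0530 (TMM), 0.0588 (DESeq2), 0.0327 (upper quartile) and 0.0365 (2 reads added). The summed reads of *KIN1* and *KIN2* gave 1.51. Of these reads *KIN2* held 96% in Col-0 against 98.6% in *35S:SsCBF1-11*, so that the sum says little of *KIN1*. The scalings moved log2 ratios by -0.02 to 0.07. With the longest reference transcript as length, the RPKM of *COR15A* was 7.88 and 270.2 in place of 16.1 and 552, that of *COR15B* 0.554 and 4.45, and that of *KIN2* 49.1 and 143, and *COR413IM1* and *COR413PM2* changed places in the order of the *35S:SsCBF1-11* library. The 24 reads of *KIN1* and the 8 of *RD29B* limit what can be said of them. No paired analysis was possible because each genotype has 1 library.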
